A study of Homo sapiens with 12 samples.

Results

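The plasminogen activator system of GCTM-5 sorted pancreatic cancer cells was described through 8 genes, taken by symbol from the 23346 genes of the expression table: *PLAU*, *PLAT*, *PLAUR*, *SERPINE2*, *SERPINB2*, *SERPINB5*, *SERPINB1* and *SERPINB8*. GCTM-5 is an antibody against a cell surface and secreted antigen of pancreatic tumour cells. RNA-seq was done on SW1990 and CFPAC-1, established human pancreatic adenocarcinoma lines grown as monolayers and sorted by flow cytometry, and the gates took only strongly positive and negative cells. The 12 samples fell into 4 groups of 3: GCTM-5 negative SW1990, GCTM-5 positive SW1990, GCTM-5 negative CFPAC-1 and GCTM-5 positive CFPAC-1. No drug or genetic change was applied, each group stands for sorted cells of 1 line, and the 3 samples of a group were separate sorts, so p-values measure the spread between sorts of a line. All 8 genes passed the filter on low values (a mean RPKM of at least 0.1 over the 12 samples), as did 16236 genes in all, but *SERPINB2* passed only through SW1990.

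Levels are given as RPKM, read counts scaled for gene length and library size. Library totals recovered from the values ranged from 9969697 reads in positive CFPAC-1 sample 3 to 26159330 in positive CFPAC-1 sample 1. The positive CFPAC-1 sample 3 also lay farthest from its group mean, with a root mean square deviation of 0.423 on the log2 scale over all genes tested, against 0.258 to 0.337 in the other samples. All 8 epithelial markers examined were present in every group. Their summed RPKM was 1708 to 2024 in negative SW1990, 4858 to 5220 in positive SW1990, 6862 to 7828 in negative CFPAC-1 and 7467 to 9196 in positive CFPAC-1. In SW1990 the sum was higher in every positive sample, with *EPCAM* at a mean of 21.7 RPKM in negative and 176 in positive cells but *KRT7* at 286 and 315 and *SOX9* at 43.9 and 48.1, and no test of this list was made. The 8 fibroblast markers summed to 12.8 to 22.7 RPKM in negative SW1990, 3.90 to 4.88 in positive SW1990 and 1.42 to 2.40 in CFPAC-1. The 4 endothelial markers summed to 14.8 to 18.8 in negative SW1990, almost all from *CDH5*, and to 0.751 to 2.05 in the other groups. The 6 leukocyte markers summed to 15.4 to 48.6 RPKM in SW1990 samples and 112 to 167 in those of CFPAC-1, nearly all from *CD68*, with the defining marker *PTPRC* at a mean of at most 0.0163 RPKM in any group. The part of these marker differences in the results was not tested, and fewer cells expressing a gene cannot be told apart from less RNA per cell.

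Urokinase (*PLAU*) and tissue plasminogen activator (*PLAT*) are secreted serine proteases that cut plasminogen into plasmin, a broad protease that digests fibrin and matrix. The urokinase receptor (*PLAUR*) is a lipid-anchored protein that holds urokinase at the cell surface. Serpins inhibit proteases by offering a reactive loop as bait and trapping the enzyme in a covalent complex; protease nexin-1 (*SERPINE2*) inhibits thrombin and both activators, and *SERPINB2* inhibits urokinase and, more weakly, tissue plasminogen activator. Clade B serpins lack a classical signal peptide and act largely inside cells. Among them, *SERPINB5* (maspin) does not inhibit proteases in the usual way, *SERPINB1* inhibits neutrophil serine proteases, and *SERPINB8* inhibits furin.

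The promoter sequences of the members that hold an AP-1 motif are shown, because it was in a larger share of the members' windows than of all windows, a description with no test. The RefSeq table on GRCh38.p14 gave windows of 300 bases, from 250 before to 50 after the annotated start, for 7 of the 8 genes (9 windows). The AP-1 motif TGANTCA, searched on both strands, was in 4 of the 9 windows and in 7.71% of the 35116 windows of the table. The N takes any base. The matches of *PLAUR* and the nearer one of *SERPINB8* read TGAGTCA and the others TGAATCA, and no stricter form was counted. The E-box CACCTG was in 2 of 9 windows (20.6% of all) and the GC box GGGCGG in 5 of 9 (45.0% of all). A match is a description of letters, not evidence of a bound site. The 250 bases before the start are printed 5′ to 3′ on the gene's strand, with AP-1 matches in capitals, from chr19:43670170-43670419 (minus strand) for *PLAUR* and, on the plus strand, from chr18:63887455-63887704 for *SERPINB2*, chr18:63476708-63476957 for *SERPINB5* and chr18:63969831-63970080 for *SERPINB8*:
PLAUR: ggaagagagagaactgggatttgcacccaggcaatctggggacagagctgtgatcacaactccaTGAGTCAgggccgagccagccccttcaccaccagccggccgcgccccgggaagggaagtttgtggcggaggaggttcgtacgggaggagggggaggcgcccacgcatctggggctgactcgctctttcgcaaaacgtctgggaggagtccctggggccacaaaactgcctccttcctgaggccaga
SERPINB2: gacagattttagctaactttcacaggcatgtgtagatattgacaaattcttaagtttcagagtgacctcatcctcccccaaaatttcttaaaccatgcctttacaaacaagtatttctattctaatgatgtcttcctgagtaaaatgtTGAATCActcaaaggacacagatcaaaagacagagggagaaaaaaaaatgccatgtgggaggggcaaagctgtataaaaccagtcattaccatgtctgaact
SERPINB5: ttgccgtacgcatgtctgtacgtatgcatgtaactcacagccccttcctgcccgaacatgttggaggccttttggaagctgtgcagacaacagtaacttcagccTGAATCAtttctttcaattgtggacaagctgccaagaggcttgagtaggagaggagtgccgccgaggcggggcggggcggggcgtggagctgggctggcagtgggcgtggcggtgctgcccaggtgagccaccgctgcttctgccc
SERPINB8: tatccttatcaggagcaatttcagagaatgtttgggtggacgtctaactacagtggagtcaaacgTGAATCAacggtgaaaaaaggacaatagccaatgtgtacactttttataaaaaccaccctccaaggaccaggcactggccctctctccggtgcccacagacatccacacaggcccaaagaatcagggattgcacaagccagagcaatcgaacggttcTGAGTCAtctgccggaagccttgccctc
The match begins 186 bases before the start in *PLAUR*, 102 before it in *SERPINB2* and 146 before it in *SERPINB5*, and *SERPINB8* holds matches at 185 and at 28 bases before its start.

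On GRCh37, with GENCODE 44 positions mapped to that build, *PLAU* lies at chr10:75668935-75677254 on the plus strand, *PLAUR* at chr19:44150247-44174699 on the minus strand, *PLAT* at chr8:42032236-42065227 on the minus strand and *SERPINE2* at chr2:224839762-224904035 on the minus strand. The clade B genes sit in clusters. *SERPINB5* (chr18:61144191-61172318), *SERPINB2* (chr18:61538926-61571122) and *SERPINB8* (chr18:61637263-61687013) lie on the plus strand of the same cluster, and *SERPINB1* (chr6:2832566-2842193) lies on the minus strand beside *SERPINB9* and *SERPINB6*. The long noncoding gene *C10orf55* lies antisense to *PLAU* and overlaps it. Its read counts were 11.5 to 13.97% of those of *PLAU* in every sample, and since the use of strand in counting is not given in the sources used here, reads of the pair may be shared.

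The first question was how these genes differ between GCTM-5 positive and negative cells of each line. *PLAU* and *PLAUR* rose with GCTM-5 in SW1990 and fell in CFPAC-1, although the fall of *PLAU* lost its adjusted p in some alternative fits, and *PLAT* fell about 4.05-fold in CFPAC-1 with no detectable change in SW1990. Among the inhibitors, *SERPINE2* fell in both lines, by 8.11-fold in SW1990 and 2.04-fold in CFPAC-1, while *SERPINB2* rose 5.70-fold in SW1990. *SERPINB5* rose in both lines, by 2.13-fold and 1.48-fold. Here "rose" and "fell" mean a Benjamini-Hochberg adjusted p under 0.05 over all genes tested in limma, folds are on the scale of log2(RPKM + 0.1), and "passed the study's thresholds" means over 2-fold with an unadjusted p under 0.01.

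**Figure D1:**
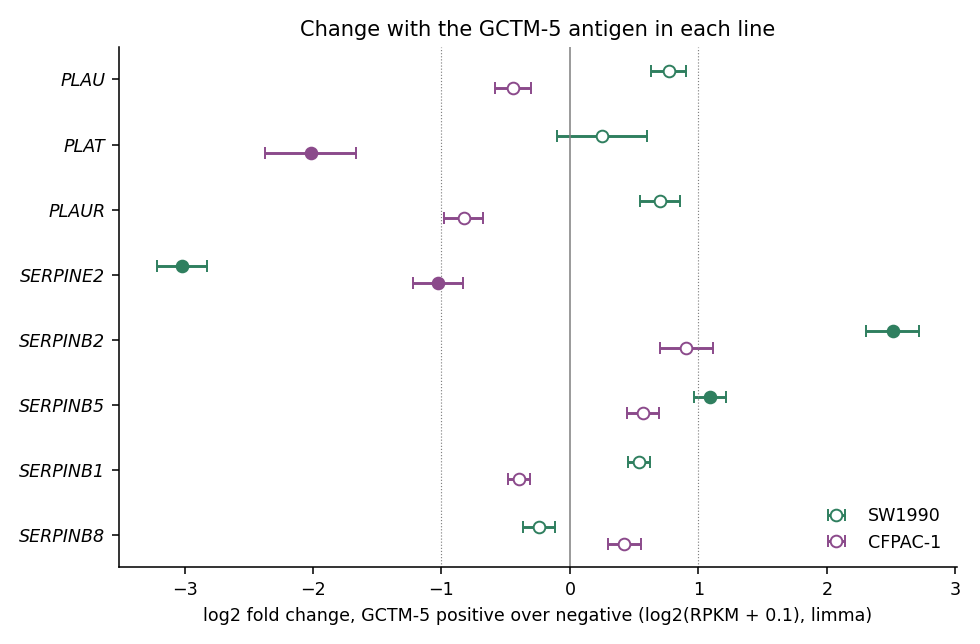
Log2 fold change of RPKM + 0.1 in GCTM-5 positive over negative cells (x axis) for the 8 genes (y axis), with SW1990 in green and CFPAC-1 in purple, error bars of 1 standard error from limma, closed markers for changes over 2-fold at an unadjusted p under 0.01 and dotted lines at 2-fold. *PLAU*, *PLAUR* and *SERPINB1* lie on opposite sides of 0 in the 2 lines, *SERPINE2* lies below 0 in both and *SERPINB5* above 0 in both.

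In SW1990, 3 of the 8 genes passed the study's thresholds, 2 higher and 1 lower in positive cells, where 12.1% of all genes tested did so (4.59% higher and 7.48% lower). By adjusted p alone, 6 of 8 changed, 5 up and 1 down, against 28.2% of all genes. In CFPAC-1, 2 of the 8 passed the thresholds, both lower, where 9.78% of all genes did so (5.65% higher and 4.13% lower). By adjusted p alone all 8 changed there, 3 up and 5 down, against 36.5% of all genes. That count includes *SERPINB2*, which had 1 read over the negative and 12 over the positive CFPAC-1 samples, and without it 7 of 7 changed, 2 up and 5 down. The positive and negative samples did not overlap for 7 of the 8 genes in SW1990 and for 8 of 8 in CFPAC-1, against 43.3% and 48.5% of all genes tested, and without *SERPINB2* for 6 and 7 of 7. Of these genes 2 were lower in positive cells in SW1990 and 5 in CFPAC-1, against 25.4% and 20.4% of all genes. The median log2 fold change of the 8 genes was 0.62 in SW1990 and -0.42 in CFPAC-1, with -0.04 and 0.05 over all genes. With 3 samples against 3, an exact permutation test of a single gene cannot give a p below 0.1. The 8 genes were chosen with earlier results of these data known. Their counts beside the shares of all genes, here and below, are therefore descriptions and no test of the set. The shares also cover genes down to a mean of 0.1 RPKM.

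The difference between the lines in the change with GCTM-5 was also tested, and it passed an adjusted p of 0.05 for 8 of 8 genes, 6 with the higher value in SW1990, against 26.9% of all genes tested, 9.16% with the higher value in SW1990 (limma). Since earlier results were known when the 8 genes were chosen, this excess over all genes may follow from the choice. For *SERPINB2*, almost without reads in CFPAC-1, the sign of this difference depended on the pseudocount, and without it the count was 7 of 7, 5 with the higher value in SW1990. Of the 8 genes, 6 had an adjusted p under 0.05 in each line, 3 in opposite directions (*PLAU*, *PLAUR* and *SERPINB1*) and 3 in the same direction (*SERPINE2*, *SERPINB5* and *SERPINB2*). Without *SERPINB2*, whose CFPAC-1 value had an adjusted p of 0.531 with a pseudocount of 1, these were 3 and 2 of 7 genes. Over all genes tested, 3.38% changed in opposite directions and 8.88% in the same direction by this measure. Centring each sample on its median turned the split of all genes passing this test from 1487 higher and 2887 lower in SW1990 to 1987 and 1988, and it left *SERPINB8* at an adjusted p of 0.0548. For *SERPINB5* the difference was marginal, with a log2 difference of 0.53 (standard error 0.18, adjusted p = 0.0443), and it was lost in 9 of the 12 fits that left out 1 sample.

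Of the activators, *PLAU* was among the most abundant transcripts of CFPAC-1. Its RPKM was 72.2, 74.2 and 71.0 in the negative SW1990 samples and 108, 146 and 119 in the positive ones. The positive SW1990 samples were all above the negative ones, with a log2 change of 0.77 (standard error 0.14, limma adjusted p = 0.00132). In CFPAC-1 its RPKM was 1253, 980.3 and 953 in the negative samples and 672, 855 and 806 in the positive ones. The positive CFPAC-1 samples were all below the negative ones, with a log2 change of -0.45 (standard error 0.14, limma adjusted p = 0.0260). Without negative sample 1, the highest, the CFPAC-1 value was -0.32 (adjusted p = 0.105), and without positive sample 1, the lowest, it was -0.34 (adjusted p = 0.100). The log2 change in SW1990 exceeded that in CFPAC-1 by 1.21 (standard error 0.20, adjusted p = 0.000904). By mean level *PLAU* ranked 17 among all genes tested in negative CFPAC-1 and 31 in positive CFPAC-1, with 850 and 411 in negative and positive SW1990.

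*PLAT* had its largest spread within a group in positive CFPAC-1 cells. Its RPKM was 521, 575 and 608 in the negative CFPAC-1 samples and 77.3, 136 and 259 in the positive ones. All positive samples were below all negative ones, and positive sample 3, the sample that stood apart, was the closest to the negative group. The log2 fold change was -2.02 (standard error 0.35, limma adjusted p = 0.00113), and it was -2.47 without that sample and -1.59 without positive sample 1. In SW1990 the RPKM of *PLAT* was 4.36, 4.93 and 5.11 in negative and 3.77, 7.69 and 6.39 in positive samples. These groups overlapped, with a log2 change of 0.25 (standard error 0.35, adjusted p = 0.660). The difference between the lines was 2.27 (standard error 0.50, adjusted p = 0.00570).

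The receptor gene *PLAUR* was nearly level between the lines in negative cells and parted in positive cells. Its RPKM was 41.1, 42.4 and 39.3 in negative SW1990 and 42.5, 41.5 and 41.0 in negative CFPAC-1. In positive cells it was 63.7, 64.7 and 71.6 in SW1990 and 17.3, 24.6 and 30.3 in CFPAC-1. Positive samples were thus all above the negative ones in SW1990 and all below them in CFPAC-1. The log2 fold change was 0.70 in SW1990 (standard error 0.15, limma adjusted p = 0.00475) and -0.83 in CFPAC-1 (standard error 0.15, adjusted p = 0.00169), a difference of 1.53 (standard error 0.22, adjusted p = 0.000390). Without positive CFPAC-1 sample 3 the CFPAC-1 value was -1.01, which passed the study's thresholds, and without positive sample 1 it was -0.61.

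**Figure D2:**
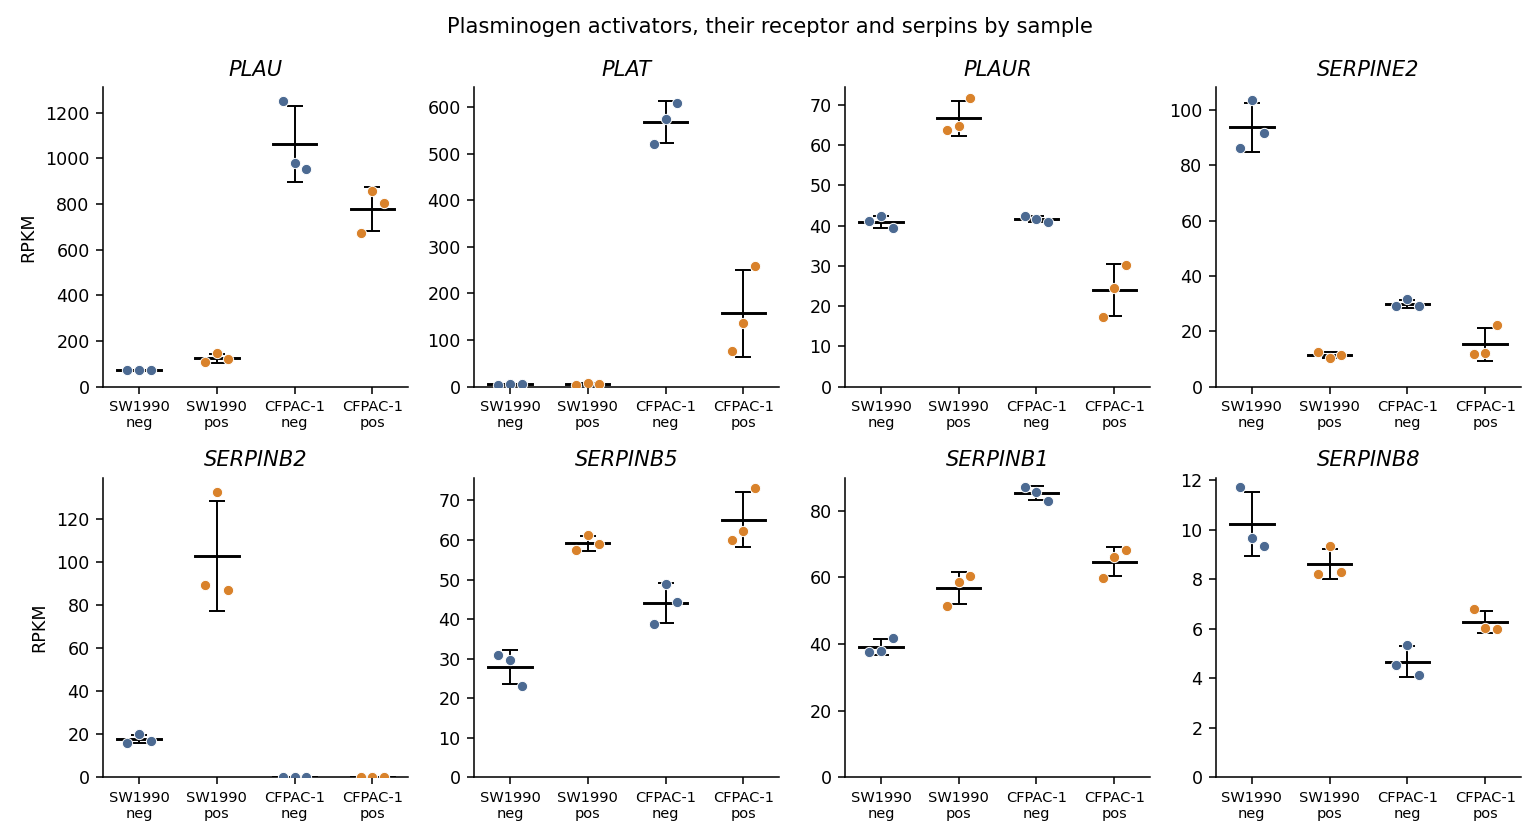
RPKM (y axis, linear from 0, its own scale in each panel) of each of the 8 genes in the 12 samples, with 1 panel per gene, 1 column per group (x axis), 1 point per sample, blue for GCTM-5 negative and orange for positive, a line at the group mean and bars of 1 SD (n = 3). *PLAU* and *PLAT* are higher in every CFPAC-1 sample than in any SW1990 sample, *SERPINB2* lies at the baseline in CFPAC-1, and *PLAUR* is highest in positive SW1990 and lowest in positive CFPAC-1 cells.

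*SERPINE2*, whose product inhibits urokinase, tissue plasminogen activator and thrombin, had the largest change of the 8 genes in SW1990. Its RPKM was 86.3, 104 and 91.6 in negative SW1990 samples and 12.6, 10.5 and 11.4 in positive ones. Every positive sample lay far below every negative sample, with a log2 change of -3.02 (standard error 0.20, limma adjusted p = 5.32e-07). In CFPAC-1 its RPKM was 29.2, 31.6 and 29.0 in negative and 11.7, 12.05 and 22.1 in positive samples. Positive sample 3 was again the closest to the negative group, and the groups did not overlap. The log2 fold change was -1.03 (standard error 0.20, adjusted p = 0.00197), just past 2-fold: it was -1.32 without positive sample 3, and -0.99, -0.87 and -0.89 without negative sample 2, positive sample 1 and positive sample 2. The decrease was larger in SW1990, by -1.99 on the log2 scale (standard error 0.28, adjusted p = 0.000337).

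*SERPINB2* was a gene of SW1990 in these samples. Its RPKM was 16.2, 19.99 and 17.1 in negative SW1990 samples and 89.5, 133 and 87.2 in positive ones, with no overlap. The log2 fold change was 2.51 (standard error 0.20, limma adjusted p = 3.00e-06). In CFPAC-1 it was at the limit of the depth, with 1, 0 and 0 reads in the negative samples and 4, 6 and 2 in the positive ones. Over the groups, 12 reads against 1 gave a ratio of 13.4 for equal depth, with an exact 95% interval of 1.98 to 572 that covers counting error only. The log2 fold change in CFPAC-1 was 0.91 with a pseudocount of 0.1 (adjusted p = 0.00515) but ranged from 0.13 with a pseudocount of 1 to 2.86 with one of 0.01, so it is no measure of size. Likewise the difference between the lines, 1.61 as fitted (standard error 0.29, adjusted p = 0.00174), became -0.35 with the pseudocount of 0.01 and -0.27 with voom on recovered reads, and its direction is not settled.

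The larger part of the summed RPKM of *SERPINE2* and *SERPINB2* lay with different genes in the SW1990 groups. *SERPINB2* made up 15.7 to 16.2% of this sum in negative SW1990 and 87.7 to 92.7% in positive SW1990.

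The summed levels of the activators and of these 2 inhibitors set the lines apart. *PLAU* plus *PLAT* came to 76.1 to 79.2 RPKM in negative SW1990, 112 to 154 in positive SW1990, 1555 to 1773 in negative CFPAC-1 and 749 to 1065 in positive CFPAC-1. *SERPINE2* plus *SERPINB2* came to 102 to 124, 98.6 to 143, 29.0 to 31.6 and 11.8 to 22.2 RPKM in the same order. The RPKM of these inhibitors was therefore 134 to 156% of activator RPKM in negative SW1990 and 78.5 to 93.2% in positive SW1990, with no overlap, but 1.65 to 2.03% and 1.23 to 2.09% in negative and positive CFPAC-1, where the groups overlapped. *SERPINA5*, from the list of other inhibitors below, was not part of the inhibitor sum. Its mean was 32.6 and 43.9 RPKM in negative and positive SW1990. In negative and positive CFPAC-1 it was 71.2 and 47.9 RPKM, above the sum of the 2 inhibitors there. The share of *PLAU* in the activator sum was 93.3 to 96.6% over all SW1990 samples, 61.1 to 70.6% in negative CFPAC-1 and 75.6 to 89.7% in positive CFPAC-1. For each unit of *PLAUR* RPKM there were 1.67 to 2.26 units of *PLAU* in SW1990 and 23.2 to 38.9 in CFPAC-1. These are ratios of RNA levels and say nothing of protein or enzyme activity.

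**Figure D3:**
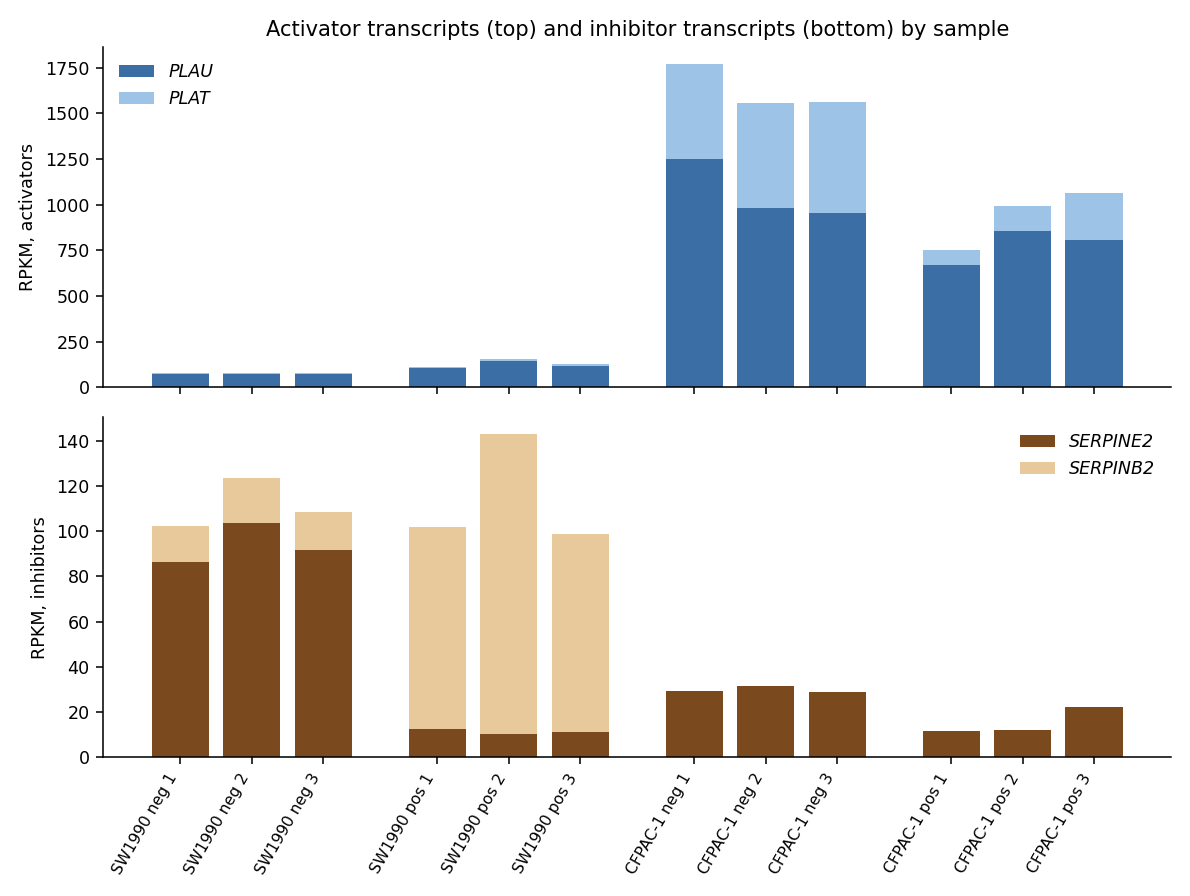
Stacked bars of RPKM (y axes, linear from 0, with different scales) in each of the 12 samples (x axis), for the activators *PLAU* and *PLAT* in the upper panel and the inhibitors *SERPINE2* and *SERPINB2* in the lower panel. The activator bars are tall in CFPAC-1 and low in SW1990, the inhibitor bars are the reverse, and in SW1990 the larger inhibitor segment is *SERPINE2* in negative and *SERPINB2* in positive samples.

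Of the other clade B serpins among the 8, *SERPINB5* (maspin) rose with GCTM-5 in both lines. Its RPKM was 31.0, 29.6 and 23.1 in negative and 57.4, 61.2 and 59.0 in positive SW1990, and 38.7, 48.8 and 44.4 in negative and 60.1, 62.3 and 73.2 in positive CFPAC-1. Positive samples were above negative samples without overlap in both. The log2 fold change was 1.09 in SW1990 (standard error 0.12, limma adjusted p = 4.10e-05) and 0.57 in CFPAC-1 (standard error 0.12, adjusted p = 0.00436). The SW1990 value fell to 0.96, under 2-fold, without negative sample 3, the lowest.

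*SERPINB1*, an inhibitor of neutrophil elastase and related enzymes, moved by small but tightly measured amounts in opposite directions. Its RPKM was 37.6, 37.8 and 41.8 in negative and 51.3, 58.8 and 60.4 in positive SW1990. In CFPAC-1 it was 87.1, 85.7 and 83.0 in negative and 59.8, 66.3 and 68.2 in positive samples. Neither pair of groups overlapped, and the log2 fold changes were 0.54 (standard error 0.09, limma adjusted p = 0.000549) and -0.40 (standard error 0.09, adjusted p = 0.00401). The difference between the lines was 0.94 (standard error 0.12, adjusted p = 0.000214).

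*SERPINB8*, a furin inhibitor, had mean levels that ranked from 6591 in negative SW1990 to 9090 in negative CFPAC-1 among all genes tested. Its RPKM was 11.7, 9.65 and 9.35 in negative and 8.22, 9.32 and 8.30 in positive SW1990, and 4.53, 5.35 and 4.13 in negative and 6.79, 6.02 and 5.99 in positive CFPAC-1. The highest positive SW1990 sample lay just under the lowest negative one, with a log2 change of -0.24 (standard error 0.13, limma adjusted p = 0.194). In CFPAC-1 the positive samples were all higher, with a log2 change of 0.42 (standard error 0.13, adjusted p = 0.0234). That adjusted p rose to 0.0654 when samples were centred on their medians, to 0.0651, 0.0975 and 0.0830 without negative sample 1, negative sample 3 and positive sample 1, and the difference between the lines was -0.66 (standard error 0.18, adjusted p = 0.0185).

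The clade B neighbours of these genes were read along the clusters. The chromosome 18 cluster runs *SERPINB5*, *SERPINB12*, *SERPINB13*, *SERPINB4*, *SERPINB11*, *SERPINB3*, *SERPINB7*, *SERPINB2*, *SERPINB10* and *SERPINB8*. Of the 9 other clade B genes in the table, 5 were tested. With GCTM-5, 1 was called higher in SW1990 (4.59% of all genes) and 2 lower in CFPAC-1 (4.13% of all genes). *SERPINB7*, next to *SERPINB2*, had a mean of 0.640 ± 0.302 RPKM (SD, n = 3) in negative and 3.98 ± 1.41 in positive SW1990, a log2 change of 2.49 (standard error 0.51, limma adjusted p = 0.00310), while its CFPAC-1 levels were 0.332 ± 0.212 and 0.168 ± 0.155 (adjusted p = 0.330).

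*SERPINB3*, a cysteine protease inhibitor, was at 52.7 ± 2.57 RPKM (SD, n = 3) in negative and 15.4 ± 10.3 in positive CFPAC-1, a log2 change of -2.02 (standard error 0.46, limma adjusted p = 0.00550). Its near-identical neighbour *SERPINB4* was at 9.37 ± 0.627 and 1.10 ± 0.589 (log2 fold change -3.13, adjusted p = 9.98e-05), and because the pair share most of their sequence the split of reads between them is uncertain. In SW1990 each sample held 2 to 8 reads of *SERPINB3* and 0 to 2 of *SERPINB4*, too few for a fold. On chromosome 6, *SERPINB6* rose by 0.40 in SW1990 (adjusted p = 0.00400) and had -0.09 in CFPAC-1 (adjusted p = 0.461), and *SERPINB9*, a granzyme B inhibitor, had 0.00 in SW1990 and fell by 0.61 on the log2 scale in CFPAC-1 (adjusted p = 0.000541). *SERPINB1*, between which and *SERPINB6* *SERPINB9* lies, was the only one of these 3 with an adjusted p under 0.05 in both lines.

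**Figure D4:**
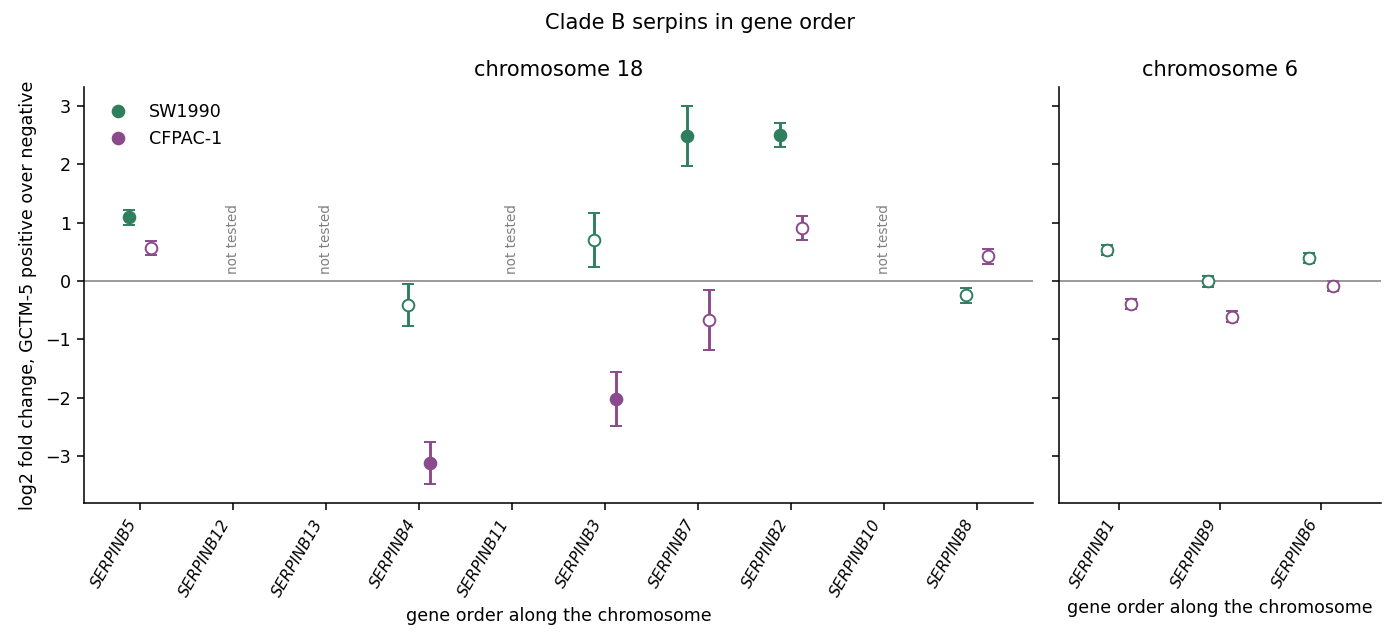
Log2 fold change of RPKM + 0.1 in GCTM-5 positive over negative cells (y axis) for the clade B serpin genes in their order along chromosome 18 and chromosome 6 (x axis, not to scale), green for SW1990 and purple for CFPAC-1, with bars of 1 standard error from limma and closed markers for changes over 2-fold at an unadjusted p under 0.01. The neighbours *SERPINB7* and *SERPINB2* have the highest values in SW1990 and *SERPINB3* and *SERPINB4* the lowest in CFPAC-1, and the SW1990 points of *SERPINB3* and *SERPINB4* rest on at most 8 reads a sample.

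The next question was how the lines differ at the same GCTM-5 state. In negative cells, 6 of the 8 genes passed the study's thresholds, 3 higher and 3 lower in SW1990, against 36.9% of all genes tested (21.9% higher and 15% lower). By adjusted p alone 7 of 8 differed, against 68.9% of all genes. In positive cells, 4 of 8 passed the study's thresholds, 2 higher and 2 lower, against 28.5% (14.8% higher and 13.7% lower), and by adjusted p alone 5 of 8 differed, against 62.3% of all genes. The groups of the lines did not overlap for 7 of 8 genes in negative cells and 5 of 8 in positive cells, against 75.2% and 63.9% of all genes. In positive cells these were 3 genes higher and 2 lower in SW1990, against 33.9% and 30% of all genes. The totals above and the counts of genes higher in SW1990 include *SERPINB2*. It passed the filter on low values only through SW1990, so its direction here followed from the filter. Line and culture cannot be told apart in these comparisons, and the median log2 difference over all genes was 0.19 in negative cells, so SW1990 values there are best read against that shift.

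Both activators were the lower in SW1990 at either state. *PLAU* had 72.5 ± 1.64 RPKM (SD, n = 3) in negative SW1990 and 1062 ± 166 in negative CFPAC-1, a log2 difference of -3.86 (standard error 0.14, limma adjusted p = 5.16e-10). In positive cells it had 124 ± 19.5 and 778 ± 94.8, a log2 difference of -2.65 (adjusted p = 1.57e-08). *PLAT* had a log2 difference of -6.86 in negative cells (4.80 ± 0.396 and 568 ± 44.1 RPKM, adjusted p = 8.61e-09) and -4.59 in positive cells (5.95 ± 2.00 and 158 ± 93.0, adjusted p = 3.99e-07). *SERPINB2* went the other way, with 2381 reads in the negative SW1990 samples against 1 in negative CFPAC-1, a ratio of 2371 for equal depth (exact 95% interval 425 to 93707), and 11985 against 12 in positive cells, a ratio of 1014 (580 to 1962). Both intervals cover counting error only and not the spread between sorts, and the direction followed from the filter.

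Several differences between the lines were seen in negative cells and not in positive ones. *SERPINE2* was higher in SW1990 by 1.64 in negative cells (93.8 ± 8.82 against 29.9 ± 1.44 RPKM, SD, n = 3, limma adjusted p = 1.17e-05), while in positive cells the groups overlapped (11.5 ± 1.07 against 15.3 ± 5.92, log2 difference -0.35, adjusted p = 0.138). *SERPINB1* was lower in negative SW1990 by -1.12 (39.1 ± 2.35 against 85.3 ± 2.12, adjusted p = 2.48e-07) and overlapped in positive cells (56.8 ± 4.82 against 64.8 ± 4.43, -0.19, adjusted p = 0.0738). *SERPINB5* had -0.66 in negative cells (adjusted p = 0.000473) and -0.13 in positive cells (adjusted p = 0.365). The tests that these line differences changed with GCTM-5 are those of the difference given above for each gene. *PLAUR* did the reverse, with -0.03 in negative cells (adjusted p = 0.890, sign not stable) and 1.503 in positive cells (66.7 ± 4.33 against 24.0 ± 6.53, adjusted p = 4.69e-06). *SERPINB8* was higher in SW1990 by 1.12 in negative cells (adjusted p = 8.48e-06), which fell to 0.93, under 2-fold, after centring on the median, and by 0.45 in positive cells (adjusted p = 0.00850).

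Ordered by mean level, *PLAU* ran negative CFPAC-1, positive CFPAC-1, positive SW1990, negative SW1990 with no overlap between neighbours. *PLAT* had the same order, but its SW1990 groups overlapped. *PLAUR* was highest in positive SW1990, with negative CFPAC-1 and negative SW1990 overlapping and positive CFPAC-1 lowest. *SERPINE2* ran negative SW1990, negative CFPAC-1, positive CFPAC-1, positive SW1990, and the last 2 overlapped.

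The rest of the pathway was read from 4 gene lists. Of 18 plasminogen receptors, clearance receptors and other inhibitors, 16 were tested: 2 were called higher and 3 lower with GCTM-5 in SW1990, and 1 higher and 2 lower in CFPAC-1, where 12.1% and 9.78% of all genes were called in either direction, with medians of 0.20 and 0.17 on the log2 scale against -0.04 and 0.05 over all genes. Among the abundant plasminogen receptors, *KRT8* was at 721 ± 105 RPKM (SD, n = 3) in negative and 1879.8 ± 244 in positive SW1990 and at 1703 ± 140 and 2776 ± 472 in CFPAC-1, with log2 fold changes of 1.39 (limma adjusted p = 5.55e-05) and 0.70 (adjusted p = 0.00649). *KRT8* is also one of the epithelial markers given above. *S100A10*, which with *ANXA2* forms a plasminogen-binding complex at the cell surface, rose by 0.68 in SW1990 (adjusted p = 0.000365) and 0.28 in CFPAC-1 (adjusted p = 0.0488), and *ANXA2* had 0.19 (adjusted p = 0.142) and -0.13 (adjusted p = 0.270). *ENO1*, a glycolytic enzyme that also binds plasminogen at the surface, had 0.00 in SW1990 and rose by 0.78 in CFPAC-1 (adjusted p = 0.00195). *SERPINA5*, the protein C inhibitor, had 0.44 in SW1990 (adjusted p = 0.184) and fell by 0.64 in CFPAC-1 (adjusted p = 0.0471).

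Of 12 proteases that these serpins inhibit or that act on pro-urokinase, 7 were tested, with 3 called higher and 1 lower in SW1990 (4.59% and 7.48% of all genes) and 0 higher and 1 lower in CFPAC-1 (5.65% and 4.13%). *ST14* (matriptase), which can activate pro-urokinase, was at 5.11 ± 1.38 RPKM (SD, n = 3) in negative and 49.7 ± 8.26 in positive SW1990 and at 66.7 ± 3.42 and 69.3 ± 17.3 in CFPAC-1, log2 fold changes of 3.28 (limma adjusted p = 3.80e-07) and 0.03 (adjusted p = 0.932). *PRSS8* (prostasin), an inhibitory target of protease nexin-1, was at 6.49 ± 3.11 and 78.6 ± 31.3 in SW1990, a log2 change of 3.59 (adjusted p = 7.58e-06), and had -0.74 in CFPAC-1 (adjusted p = 0.0978). The lysosomal cathepsin gene *CTSB* fell in both lines, by 1.47 in SW1990 (adjusted p = 2.16e-05) and 1.00 in CFPAC-1 (adjusted p = 0.000546), and *CTSL1* (now *CTSL*) fell by 0.97 and 0.46 (adjusted p = 0.000738 and 0.0433). *FURIN*, the target of *SERPINB8*, had 0.03 in SW1990 (adjusted p = 0.939) and fell by 0.70 on the log2 scale in CFPAC-1 (adjusted p = 0.00444). *SERPINB8* rose there, but this rise lost its adjusted p under 0.05 in some alternative fits. *PLG*, the gene of plasminogen itself, had no reads in any sample and so was not among the genes tested.

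Of 10 substrates and plasmin-regulated matrix genes, 9 were tested, with 2 called higher and 4 lower in SW1990 (4.59% and 7.48% of all genes) and 1 higher and 1 lower in CFPAC-1 (5.65% and 4.13%). The laminin chain gene *LAMB3* rose in SW1990 by 1.26 on the log2 scale (limma adjusted p = 0.000480) and had -0.40 in CFPAC-1 (adjusted p = 0.135). *THBS1*, a matrix glycoprotein, had -0.15 in SW1990 (adjusted p = 0.765) and rose by 2.01 in CFPAC-1 (adjusted p = 0.000405), from 24.3 ± 5.84 to 100.2 ± 33.6 RPKM (SD, n = 3). *TGFB1* and *TGFB2* encode latent growth factors that plasmin can release. *TGFB1* fell by 1.36 in SW1990 and 0.45 in CFPAC-1 (adjusted p = 1.21e-05 and 0.0209). *TGFB2* fell by 1.11 in SW1990 and 1.12 in CFPAC-1 (adjusted p = 1.70e-05 and 4.73e-05). *MET*, the receptor of a growth factor that urokinase-type proteases activate, rose by 0.23 in SW1990 (adjusted p = 0.0377) and fell by 0.57 in CFPAC-1 (adjusted p = 0.000235), a difference of 0.80 (adjusted p = 0.000262) in the same direction as that of *PLAU*, *PLAUR* and *SERPINB1*.

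**Figure D5:**
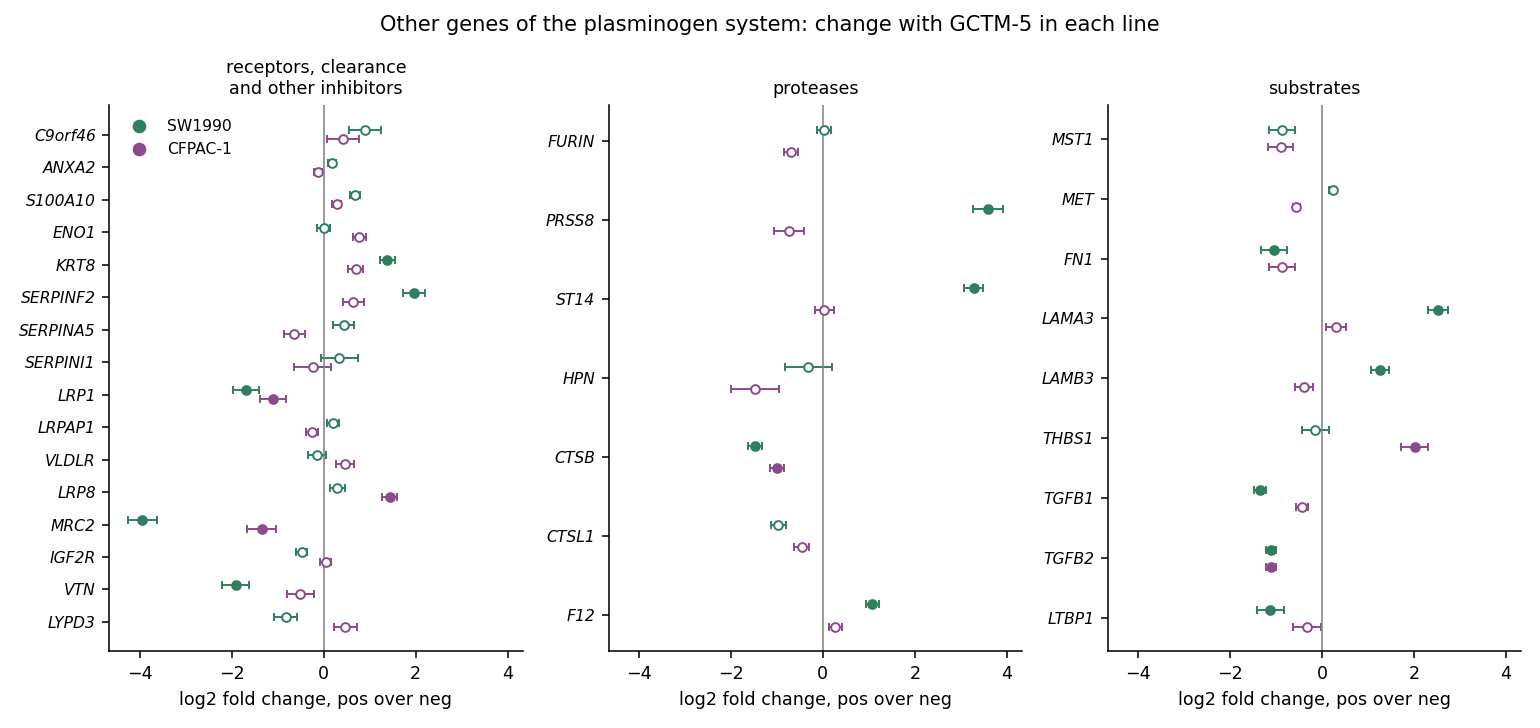
Log2 fold change of RPKM + 0.1 in GCTM-5 positive over negative cells (x axis) for the tested genes (y axis) of the lists of receptors and other inhibitors, proteases, and substrates, 1 panel per list, green for SW1990 and purple for CFPAC-1, with bars of 1 standard error from limma and closed markers for changes over 2-fold at an unadjusted p under 0.01. *ST14* and *PRSS8* lie far to the right in SW1990 and near or below 0 in CFPAC-1, while *CTSB* and *TGFB2* lie to the left in both lines.

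The genes whose pattern over the 12 samples was most like each member were found by Pearson correlation of log2(RPKM + 0.1), as a description in which the points share line and library. *PLAU* was most like its antisense neighbour *C10orf55* (r = 0.999, and 0.940 with the group means removed) and *GCNT3* (0.996, and 0.640 with them removed). Reads of *PLAU* and *C10orf55* may be shared, as given above, so their likeness may come from the same reads. *PLAUR* was most like *THBD*, the gene of thrombomodulin (0.971), and *NT5E* (0.960), with 0.964 and 0.746 within groups. *PLAT* was most like *TCN1* and *PPAP2B* (0.995 each), which stayed at 0.841 and 0.981 within groups. For *SERPINE2* the nearest genes were *ETV5* (0.979, and 0.536 within groups) and *PTPRJ* (0.973, and 0.320). For *SERPINB1* they were *RASA1* (0.982, and 0.346) and *HMGA1* (0.981, and 0.467), and for *SERPINB5* *KRT18* (0.977, and 0.669) and *SNAPC5* (0.962, and 0.567). *SERPINB8* was most like *KIAA1731* (0.974, and 0.685) and *ITGB1BP1* (0.973, and 0.664). *SERPINB2* was most like *MLF2* (0.993) and *CMAS* (0.992), but within groups these values were -0.18 and 0.22, and they include CFPAC-1 samples with 0 to 6 reads of *SERPINB2*.

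Among the members themselves, with the group means removed, *PLAUR* and *PLAT* moved together from sample to sample (r = 0.834 over 12 samples), as did *PLAT* and *SERPINB1* (0.764). *PLAU* and *SERPINE2* did not (-0.01). The highest value of any pair was that of *PLAU* and *SERPINB2* (0.871), which includes CFPAC-1 samples with 0 to 6 reads of *SERPINB2*. These correlations include the sample that stood apart, positive CFPAC-1 sample 3, in which *PLAT*, *PLAUR*, *SERPINE2*, *SERPINB1* and *SERPINB5* were each the highest of their group.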

How the data were processed

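RNA-seq was done by the study's authors on GCTM-5 sorted SW1990 and CFPAC-1 cells, 3 samples in each of 4 groups given by the sample labels. The deposited values are RPKM per gene: reads were aligned by the authors to hg19/GRCh37, quantified with QuasR and scaled by library size and gene length. The annotation, the use of strand, the treatment of reads matching several genes and the QuasR version are not given in the sources used here. All table columns were mapped to samples by title. The labels and the methods of the study name different library kits, media and secondary antibodies.

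Whole reads were recovered from the RPKM values with gene lengths of single-exon genes (all 19654 genes above 0, to within 0.01 of a read), and the recovery and the fits were tested on simulated data. The main test was limma 3.58.1 in R 4.3.3 on log2(RPKM + 0.1) with 4 group means and a trended prior, 2-sided, on the 16236 genes averaging 0.1 RPKM or more over the samples. The pseudocount understates changes of low genes. Calls within a state or line needed over 2-fold and an unadjusted p under 0.01, which is a reading of the study's thresholds made here, and the difference between the lines needed a Benjamini-Hochberg adjusted p under 0.05. Alternatives changed the pseudocount, the filter, the scaling, the moderation, the samples fitted, the call rule and the test (voom on recovered reads), added the replicate number as a block, and left out each sample in turn.

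The 8 members and the gene lists were chosen with earlier results of these data known. Genes named besides the members were the 5 of each list with the highest mean RPKM and the 2 genes of mean RPKM at least 1 most correlated with each member. *PLGRKT* and *CTSL* were found under the older symbols *C9orf46* and *CTSL1*. Read ratios carry exact 95% intervals for counting error only. Some genes of the lists are not reported here, and the counts and the naming rule cover the remaining genes. Protein sequences were not analysed here.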

Additional observations from a re-analysis of the deposited data

Results flagged for a closer look

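The change with GCTM-5 differed between SW1990 and CFPAC-1, by the limma interaction term at an adjusted p under 0.05, for each of the 8 genes. The log2 change in SW1990 minus that in CFPAC-1 was 1.21 for *PLAU*, 1.53 for *PLAUR*, 2.27 for *PLAT*, 0.94 for *SERPINB1*, 1.61 for *SERPINB2* and 0.53 for *SERPINB5*. It was -1.99 for *SERPINE2* and -0.66 for *SERPINB8*. The values for *SERPINB2*, *SERPINB5* and *SERPINB8* depended on the settings given under the processing. Groups of 3 samples were too small for a test of single outlying samples.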

How the results depend on the processing

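Of 856 recomputed values for 40 log2 differences of single genes under 22 other settings, 827 kept their direction and side of the threshold, and 31 of the 40 did so in every setting. The threshold is the call rule of each comparison, so within a line a lost adjusted p under 0.05 is not counted. In CFPAC-1 it was lost in some settings for *PLAU* and *SERPINB8* (limma adjusted p = 0.101 and 0.0592 with each line fitted alone). *SERPINB2* lost it there with a pseudocount of 1 (0.531). The members called in SW1990 were 3, and 6 with an adjusted p under 0.05 and no fold threshold, and 2 to 3 when 1 sample was left out. In CFPAC-1 they were 2, with 8 under the adjusted p rule, 1 with a pseudocount of 1, and 1 to 3 when 1 sample was left out. The 3 reversals were the *SERPINB2* difference between the lines (-0.35 with a pseudocount of 0.01 and -0.27 with voom on recovered reads, as the gene has almost no reads in CFPAC-1) and the *PLAUR* difference between negative cells of the lines (-0.0517 to 0.00176 when 1 sample was left out, with the positive value without negative SW1990 sample 3). The difference between the lines was called for 6 to 8 genes when 1 sample was left out, and *SERPINB5* lost it with no filter (adjusted p = 0.0521) and with no trend in the prior (adjusted p = 0.0718, limma). *SERPINB8* lost it under median centring (adjusted p = 0.0548), quantile normalization (0.0527) and without negative CFPAC-1 sample 3 (0.0514). The cause of these losses was not tested. Deviations of same-numbered samples correlated at -0.06 to 0.18, with 2 of 6 pairs over 0.1, and those of other-numbered samples at -0.25 to 0.16. With 3 samples a group, these values cannot decide whether replicate numbers pair the samples. With the replicate number as a block, the counts of members called stayed at 3, 2, 8, 6 and 4 for SW1990, CFPAC-1, the difference, and the lines in negative and in positive cells, and the adjusted p of *PLAU* in CFPAC-1 was 0.0513. Depth limits *SERPINB2* in CFPAC-1, and *SERPINB3* and *SERPINB4* in SW1990.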
